A study of Mus musculus with 8 samples.

Results

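The mitochondrially encoded genes are the 37 genes carried by the mitochondrial genome, and they were chosen by a gene symbol that begins with mt-, a rule that uses no measured value. Of these, 13 genes, which encode proteins, were found among the 31053 Ensembl identifiers of the count table. The 2 rRNA and 22 tRNA genes were not analysed here. Bulk RNA-seq was performed on brown adipose tissue (BAT) of 4 wild-type (WT) and 4 Ucp1Δ/Δ mice, labelled ATGLKO. All mice were male, on the C57BL6/J background and given as 10 weeks old in the labels, whereas the study's text gives a younger age. Ucp1Δ/Δ mice carry a loxP-flanked Pnpla2 gene and a Cre recombinase driven by Ucp1, so the deletion is directed to UCP1+ adipocytes and other cells of the tissue keep the gene. WT mice are described as C57BL6/J mice, and whether they were littermates that carried the floxed allele or Cre is not given in the sources used here. As cell type the labels give the stromal vascular fraction, which is depleted of adipocytes, although Ucp1 RNA was present in every mouse.

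Mitochondrial DNA is a small circular genome kept in many copies in each cell, and its protein-coding genes all specify subunits of the respiratory chain and of ATP synthase. It is read from both strands as long transcripts, and the tRNAs that lie between the coding sequences are cut out to release the mRNAs. The heavy-strand transcript holds all protein-coding genes but mt-Nd6, which is read from the other strand. Brown adipocytes are packed with mitochondria, where UCP1 lets protons re-enter the matrix to release heat. The remaining subunits of these complexes and all proteins that copy, transcribe and translate this genome are encoded by nuclear genes.

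Pnpla2, the gene of the triglyceride lipase ATGL, had 5564, 6030, 8867 and 6222 counts in WT mice 1 to 4. In Ucp1Δ/Δ mice 1 to 4 it had 1452, 1439, 964 and 1236 counts. It was lower in 4 of 4 Ucp1Δ/Δ mice, with a log2FC of -2.62 (standard error 0.17, edgeR adjusted p = 1.97e-07). Total counts per mouse were 2017697, 2425058, 3115956 and 2110124 in WT and 2837939, 2941799, 2317343 and 2240612 in Ucp1Δ/Δ. Expression levels are given in CPM, counts scaled to a common library size after TMM normalization, and 3 counts amount to 0.933 to 1.53 CPM depending on the mouse.

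Mitochondrially encoded genes took a large share of total counts in both genotypes, and the shares of the genotypes overlapped. Their summed counts were 791520, 931100, 1225342 and 962623 in WT mice 1 to 4. In Ucp1Δ/Δ mice 1 to 4 they were 1141239, 1149390, 926702 and 954922. As a share of total counts these are 39.2, 38.4, 39.3 and 45.6% in WT and 40.2, 39.1, 40.0 and 42.6% in Ucp1Δ/Δ. WT mouse 4 had the highest share of all mice, and the remaining WT mice lay within or just below the range of the Ucp1Δ/Δ mice. The mean was 40.6% ± 3.34 (SD, n = 4) in WT and 40.5% ± 1.51 (SD, n = 4) in Ucp1Δ/Δ, a difference of -0.169 percentage points. That difference is smaller than the spread between mice of either genotype. It was 1.49 points, in the other direction, without WT mouse 4, and -3.98 points when the TMM-scaled library size used for CPM took the place of total counts, with overlapping ranges under that scaling too. The 95% Wilson interval of a single mouse reached at most 0.0674 points to either side and covers counting error only, so the spread between mice far exceeds the sampling of reads. In bulk tissue, fewer cells of a type and less RNA per cell cannot be told apart.

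**Figure D1:**
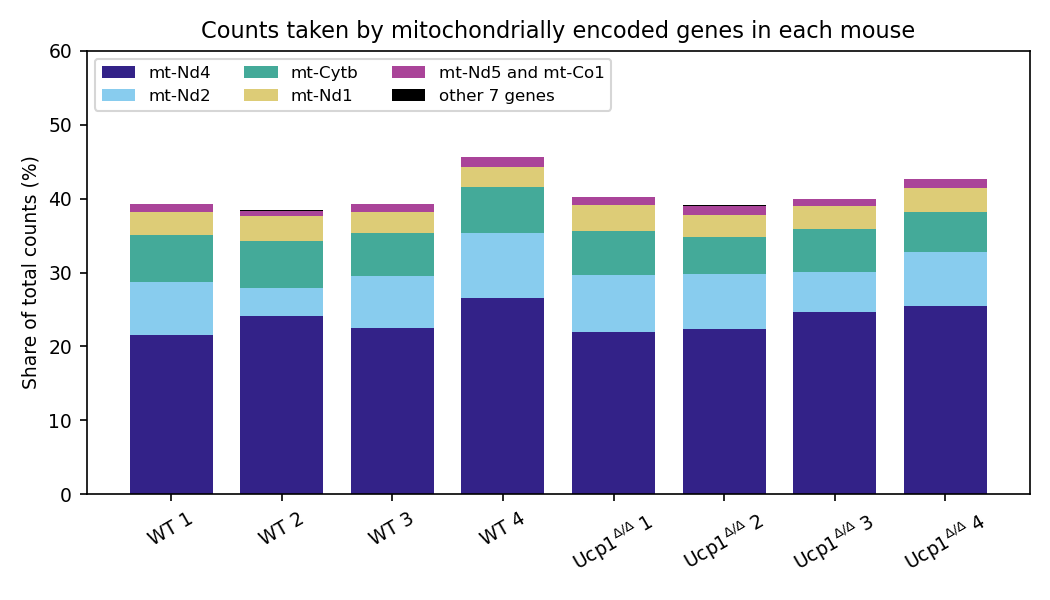
Stacked bars of the share of total counts (%) taken by the mitochondrially encoded genes in each of 4 WT and 4 Ucp1Δ/Δ mice, coloured by gene. The bars reach 38.4 to 45.6% in WT and 39.1 to 42.6% in Ucp1Δ/Δ, mt-Nd4 fills more of every bar than all other genes together, and the 7 least counted genes are too small to see.

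The summed share was carried by very few genes. mt-Nd4 alone held 21.6, 24.2, 22.5 and 26.6% of total counts in WT mice 1 to 4 and 21.9, 22.3, 24.7 and 25.4% in Ucp1Δ/Δ mice 1 to 4. Without it, the other 12 genes took 16.9% ± 2.03 (SD, n = 4) in WT and 16.9% ± 1.25 (SD, n = 4) in Ucp1Δ/Δ. Grouped by complex, the 7 complex I genes made up 83.7% ± 1.24 (SD, n = 4) of the mitochondrially encoded counts in WT and 85.3% ± 1.03 (SD, n = 4) in Ucp1Δ/Δ. The 3 complex IV genes made up only 0.907% ± 0.124 (SD, n = 4) and 0.964% ± 0.131 (SD, n = 4), and the 2 complex V genes 0.0147% ± 0.00393 (SD, n = 4) and 0.0157% ± 0.00252 (SD, n = 4). The ranges of the genotypes overlapped for every complex.

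Levels per length spread over several orders of magnitude among these genes, all of which but mt-Nd6 are read from the same heavy-strand transcript. Averaged over all 8 mice and divided by gene length, mt-Nd4 stood at 173314 CPM per kb, above mt-Nd2 at 66233 and mt-Cytb at 52185. The ranges of mt-Nd2 and mt-Cytb over mice overlapped, so their order is not settled. mt-Nd1 followed at 32752 CPM per kb, then mt-Nd5 at 3805 and mt-Co1 at 2419, whose ranges also overlapped. A low group followed, in which each gene's range over mice overlapped that of the next: mt-Nd3 at 123, mt-Atp6 at 84.9, mt-Co3 at 68.2, mt-Co2 at 48.4, mt-Nd6 at 42.2 and mt-Atp8 at 19.5 CPM per kb. mt-Nd4l was lowest at 2.91 CPM per kb, with 0 to 8 counts per mouse. mt-Nd4l and mt-Nd4 overlap on the same strand with no tRNA gene between them, as do mt-Atp8 and mt-Atp6. For such pairs, counts per length need not give separate mRNA levels.

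Most genes of the low group have a near-identical copy in the nuclear genome. On chromosome 1 of mm10, 7 annotated pseudogenes lie in a row on the minus strand at chr1:24611535-24616197, a stretch of 4663 bases. They match, in the same order, the mitochondrial genes within chrM:6381-11042, a stretch of 4662 bases that runs from the end of mt-Co1 into mt-Nd4. The aligned bases were identical along the whole pseudogene for mt-Co2 (Gm28661, 681 bases), mt-Atp6 (Gm10925, 678 bases), mt-Co3 (Gm28437, 783 bases), mt-Nd4l (Gm10222, 294 bases) and the first 876 bases of mt-Nd4 (Gm28439). For mt-Nd3 the copy Gm28438 was identical at 99.7% of 345 bases, and for the last 492 bases of mt-Co1 the copy Gm29216 was identical at 98.8%. Between the copies of mt-Co2 and mt-Atp6 lie 233 bases in both genomes, where the mitochondrial genome holds mt-Atp8 and the nuclear annotation names no gene. The start of mt-Nd3 and of its copy show how little separates them. Capitals mark the single difference, T3C counted from the first base of the gene.

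mt-Nd3: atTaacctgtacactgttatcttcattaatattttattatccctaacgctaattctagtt
Gm28438: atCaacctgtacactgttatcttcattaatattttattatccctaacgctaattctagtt

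The start of mt-Co2, the gene of the copper-binding subunit of cytochrome c oxidase, and the start of its copy have no difference to mark.

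mt-Co2: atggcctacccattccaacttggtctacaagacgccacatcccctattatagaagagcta
Gm28661: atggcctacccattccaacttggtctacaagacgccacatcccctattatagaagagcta

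In mt-Nd4 the match to the annotated pseudogene stops inside the gene. Capitals in its bases 847 to 906 mark what Gm28439 holds, and the lower-case bases have no counterpart in that pseudogene.

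mt-Nd4 (bases 847 to 906): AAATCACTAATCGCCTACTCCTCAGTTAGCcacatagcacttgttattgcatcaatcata

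The 3′ ends of the genes differ in the same way, and they are shown because a poly(A)-primed library reads mRNA near its end. Whether these libraries were primed there is not given in the sources used here. Capitals mark bases that lie in a 75-base stretch, the length of a read, that also occurs in an annotated nuclear transcript.

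mt-Nd4 (bases 1319 to 1378): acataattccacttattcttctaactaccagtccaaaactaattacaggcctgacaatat
mt-Cytb (bases 1085 to 1144): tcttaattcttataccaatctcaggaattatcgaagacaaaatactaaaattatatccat
mt-Nd1 (bases 898 to 957): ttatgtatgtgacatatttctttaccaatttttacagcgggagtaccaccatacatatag
mt-Co1 (bases 1486 to 1545): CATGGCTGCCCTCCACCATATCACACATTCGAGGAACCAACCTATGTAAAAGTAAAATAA

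Of all 75-base windows along each gene, the share found in an annotated nuclear transcript was 99.9% for mt-Co3, 99.5% for mt-Co2 and mt-Atp6, 98.7% for mt-Nd4l and 97.8% for mt-Nd3. These 5 genes together held 0.0190% ± 0.00562 (SD, n = 4) of total counts in WT and 0.0181% ± 0.00259 (SD, n = 4) in Ucp1Δ/Δ. The share of windows was 61.5% for mt-Nd4, whose last 502 bases had none, and 39.8% for mt-Co1, whose matched bases reach its 3′ end. It was 5.71% for mt-Nd2, 1.66% for mt-Nd5 and 0% for mt-Nd1, mt-Cytb, mt-Nd6 and mt-Atp8. Not all matches were to chromosome 1. Those of mt-Nd2 were to Gm13339 on chromosome 2, where mt-Co1 and mt-Co2 also had matches (Gm13340 and Gm13341). Those of mt-Nd5 were to Gm4076 on chromosome 13 and Gm11407 on chromosome 4. mt-Nd6 and mt-Atp8 were low as well. For mt-Atp8 the 0% covers annotated transcripts only, and the 233 nuclear bases without an annotated gene at its place were not examined. A read that fits both genomes equally well cannot be given to one of them, and how such reads were treated is not given in the sources used here. The part of the nuclear copies in the low counts was not tested, and the levels of these 5 genes, and the order of levels among all genes, are uncertain to that extent. The pseudogenes themselves were not analysed here.

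**Figure D2:**
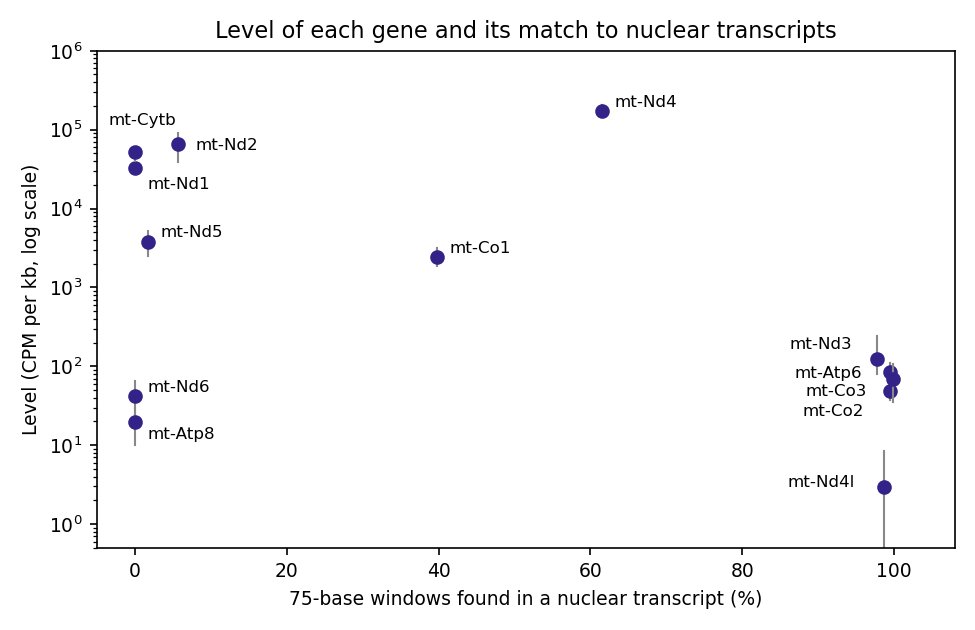
Level of each of the 13 mitochondrially encoded genes (CPM per kb, log scale, mean of 8 mice, lines from the lowest to the highest mouse) against the share of its 75-base windows found in a nuclear transcript (%). The 5 genes at 97.8% or more all lie at or below 123 CPM per kb, mt-Nd6 and mt-Atp8 lie as low at 0% of annotated transcripts, and mt-Nd4 lies highest at 61.5%; the line of mt-Nd4l runs to 0, below the axis.

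Complex I passes electrons from NADH to ubiquinone and pumps protons, and its membrane arm is built largely of the mitochondrially encoded ND subunits. mt-Nd1 (chrM:2751-3707), at the joint of the arms, held 3.02, 3.38, 2.88 and 2.66% of total counts in WT mice 1 to 4 and 3.57, 2.95, 3.15 and 3.23% in Ucp1Δ/Δ mice 1 to 4. mt-Nd2 (chrM:3914-4951), a proton-pumping subunit, held 7.18, 3.75, 7.004 and 8.74% in WT and 7.77, 7.44, 5.35 and 7.40% in Ucp1Δ/Δ. The genotypes overlapped for both genes, and WT mouse 2 had the lowest mt-Nd2 share of all mice. mt-Nd5 (chrM:11742-13565), the pumping subunit at the tip of the arm, held 0.702, 0.418, 0.720 and 0.893% in WT and 0.624, 0.813, 0.604 and 0.746% in Ucp1Δ/Δ, and WT mouse 2 was again the lowest. mt-Nd4, the pumping subunit next to it, is at chrM:10167-11544 and varied by at most 1.23 times between mice of one genotype.

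The smaller ND subunits had few reads. mt-Nd3 (chrM:9459-9806), which forms a flexible loop near the ubiquinone site, had 84, 187, 106 and 84 counts in WT and 142, 102, 66 and 67 in Ucp1Δ/Δ. WT mouse 2 stood above all others, and the genotypes overlapped. mt-Nd4l had 4, 1, 2 and 1 counts in WT and 1, 8, 1 and 0 in Ucp1Δ/Δ, at or near the limit of detection, and was not tested. mt-Nd6 (chrM:13552-14070, minus strand), the only protein-coding gene of the light-strand transcript, had 25, 33, 42 and 52 counts in WT and 66, 109, 63 and 55 in Ucp1Δ/Δ. In CPM these are 12.7, 14.8, 14.0 and 26.3 in WT and 23.4, 33.9, 26.3 and 23.6 in Ucp1Δ/Δ. Raw counts also depend on library size, and the scaled values overlapped between genotypes through WT mouse 4. mt-Nd5 and mt-Nd6 share 14 bases at their 3′ ends on opposite strands, and mt-Nd6 lies opposite heavy-strand RNA along its whole length, so without knowledge of whether strand was used in counting, reads of either strand cannot be told apart.

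Complex III hands electrons from ubiquinol to cytochrome c, and cytochrome b, encoded by mt-Cytb (chrM:14145-15288), is its only mitochondrially encoded subunit. mt-Cytb held 6.39, 6.38, 5.86 and 6.26% of total counts in WT mice 1 to 4 and 5.95, 5.07, 5.83 and 5.41% in Ucp1Δ/Δ mice 1 to 4. In CPM it was 65733 ± 3493 (SD, n = 4) in WT and 53667 ± 5744 (SD, n = 4) in Ucp1Δ/Δ. It was the gene with the least spread among WT mice, and on the CPM scale every Ucp1Δ/Δ mouse lay below every WT mouse, whereas the shares of total counts overlapped.

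Complex IV, cytochrome c oxidase, reduces oxygen to water. mt-Co1 (chrM:5328-6872), its catalytic subunit, held 0.357, 0.269, 0.360 and 0.462% of total counts in WT and 0.370, 0.444, 0.339 and 0.368% in Ucp1Δ/Δ, within the range of WT in all 4 mice. mt-Co2 (chrM:7013-7696), which accepts electrons from cytochrome c, had 88, 103, 99 and 57 counts in WT and 86, 86, 70 and 59 in Ucp1Δ/Δ. In CPM mt-Co2 was 38.2 ± 8.58 (SD, n = 4) in WT and 27.9 ± 2.32 (SD, n = 4) in Ucp1Δ/Δ, and the ranges met only through WT mouse 4. mt-Co3 (chrM:8607-9390), the remaining core subunit, had 102, 188, 139 and 54 counts in WT and 182, 128, 152 and 116 in Ucp1Δ/Δ. WT mice held both the highest and the lowest of its counts.

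Complex V is the ATP synthase, whose membrane part holds both mitochondrially encoded subunits. mt-Atp6 (chrM:7927-8607), which lines the proton path, had 109, 165, 190 and 81 counts in WT and 202, 135, 137 and 135 in Ucp1Δ/Δ. mt-Atp8 (chrM:7766-7969), a short structural subunit, had 4, 6, 15 and 9 counts in WT and 15, 13, 5 and 14 in Ucp1Δ/Δ. Both genes overlapped between genotypes. They share 43 bases of coding sequence, mt-Nd4l and mt-Nd4 share 7, and mt-Atp6 and mt-Co3 share 1, so reads across these borders belong to both genes.

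**Figure D3:**
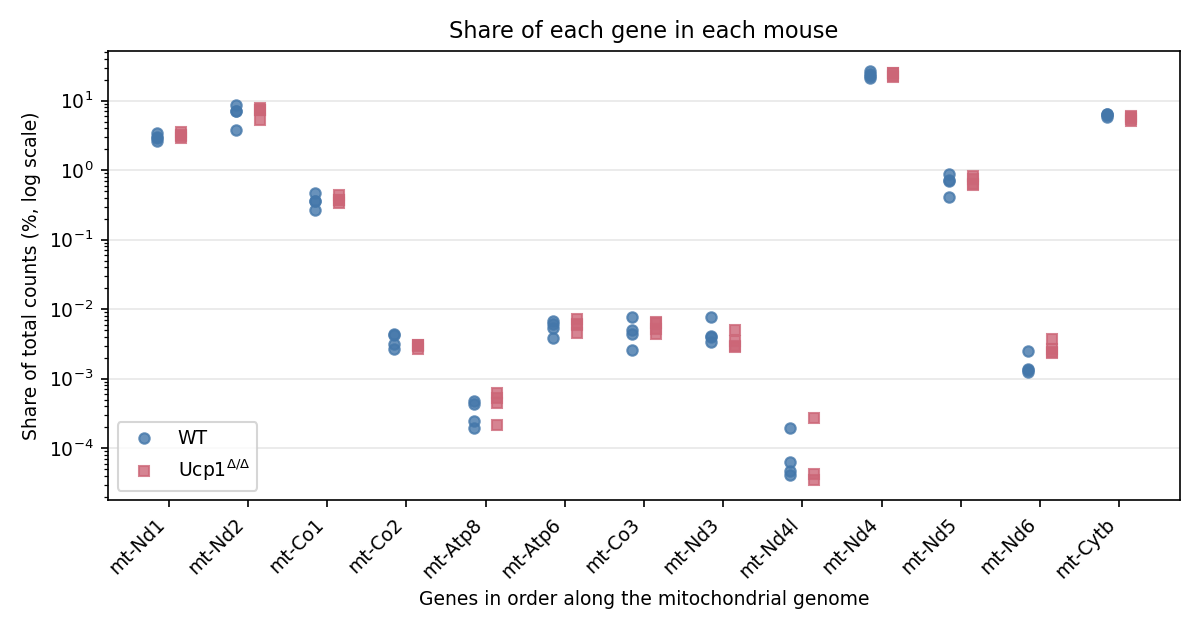
Share of total counts (%, log scale) of each mitochondrially encoded gene in each mouse, in the order of the genes along the mitochondrial genome, with WT mice as circles and Ucp1Δ/Δ mice as squares. mt-Nd4 lies above 20% and mt-Nd4l at or below 0.000272% in every mouse, the genotypes overlap for all 13 genes, and the Ucp1Δ/Δ mouse with 0 mt-Nd4l counts cannot be drawn on the log axis.

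None of the 12 mitochondrially encoded genes that passed the filter on low counts was called between genotypes at 0.05 after Benjamini-Hochberg adjustment over 8930 genes (quasi-likelihood test of edgeR). Over all genes tested, 21% were called, 13.3% higher and 7.63% lower in Ucp1Δ/Δ. The median log2FC was -0.064 over the 12 genes, with 9 below 0 and 3 above, and -0.0087 over all genes tested. At an unadjusted p under 0.05 there were 2 genes, mt-Co2 and mt-Nd6, beside 32.6% of all genes tested. DESeq2's Wald test called 1 gene, mt-Cytb, lower, and limma voom called 1 gene, mt-Nd6, higher.

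The interval of each difference sets what these data could have missed. For mt-Nd4 the log2FC was -0.14 (95% interval -0.58 to 0.30, edgeR adjusted p = 0.684), which leaves changes of up to 0.667-fold or 1.23-fold inside it. For mt-Nd1 it was -0.02 (-0.41 to 0.37), for mt-Nd2 -0.06 (-0.59 to 0.47), for mt-Nd5 -0.11 (-0.56 to 0.34) and for mt-Co1 -0.07 (-0.46 to 0.32). The direction of these 4 small values, and of mt-Atp6 (-0.04), turned to above 0 when libraries were scaled by total counts in place of TMM, which also moved the median of all genes from -0.0087 to 0.126. Relative to that median they lay below it under both scalings. This did not hold for all of them with the filter of 10 counts in every mouse. There the median of all genes was -0.0029, mt-Nd1 was 0.050, mt-Nd2 0.0035, mt-Co1 0.0023 and mt-Atp6 0.032, while mt-Nd5 was -0.041.

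mt-Cytb had a log2FC of -0.29 (95% interval -0.69 to 0.10, edgeR adjusted p = 0.302). It was the only one of the 12 genes whose CPM did not overlap between genotypes, beside 23.7% of all genes tested without overlap and 9.37% without overlap and lower. The share of total counts overlapped for all 12 genes, beside 23.4% of all genes tested that did not overlap. DESeq2's Wald test gave mt-Cytb an adjusted p of 0.0499, and called 6.2% of the genes with an adjusted p lower. With edgeR's test, mt-Cytb passed the threshold under no alternative scaling or filter.

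mt-Nd6 had the largest log2FC of the 12 genes, 0.67 (95% interval 0.15 to 1.196, edgeR adjusted p = 0.0646). It went past the threshold when libraries were scaled by total counts (adjusted p = 0.0288), by nuclear counts (adjusted p = 0.0458) or by the mitochondrially encoded counts (adjusted p = 0.0205), all with edgeR. It did so too with edgeR on all genes with at least 1 count in any mouse (adjusted p = 0.0476) or at least 10 counts in every mouse (adjusted p = 0.0487), and with limma voom (adjusted p = 0.0149). In these 6 settings, in the same order, 16.4, 16.2, 15.6, 9.81, 10.8 and 14.9% of all genes tested were called higher. Without WT mouse 4, whose mt-Nd6 was highest of the WT mice, the log2FC was 0.94 (edgeR adjusted p = 0.00609), and without Ucp1Δ/Δ mouse 2 it was 0.54 (edgeR adjusted p = 0.205). The call therefore depended on single mice and on the scaling, and the direction did not under any of the alternatives run.

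mt-Nd3 and mt-Co2, both matched by nuclear copies, had the lowest log2FC. For mt-Nd3 it was -0.56 (95% interval -1.13 to 0.02, edgeR adjusted p = 0.167), and on all genes with at least 1 count in any mouse its edgeR adjusted p was 0.0467, beside 5.31% of genes called lower there. Without WT mouse 2, whose mt-Nd3 was the highest of all mice, it was -0.22 (edgeR adjusted p = 0.516). For mt-Co2 it was -0.45 (-0.86 to -0.03, edgeR adjusted p = 0.120), and without WT mouse 4 it was -0.57 (edgeR adjusted p = 0.0437). Without that mouse 14.1% of all genes tested were called higher and 9.19% lower. The remaining values were -0.04 for mt-Atp6, 0.05 for mt-Co3 and 0.25 for mt-Atp8, with 95% intervals of -0.48 to 0.40, -0.53 to 0.62 and -0.60 to 1.11.

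**Figure D4:**
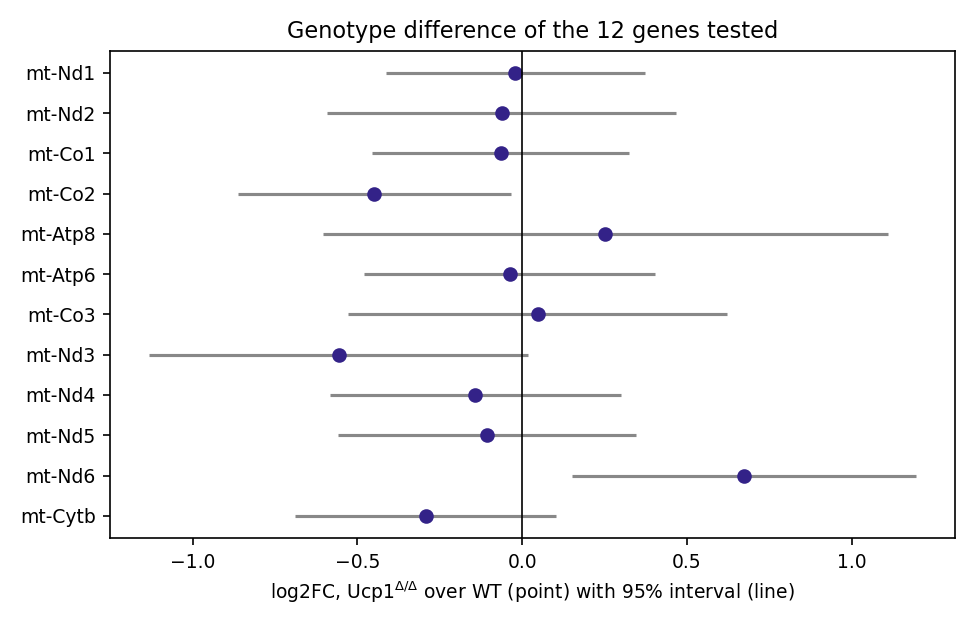
Difference between genotypes (log2FC of Ucp1Δ/Δ over WT, edgeR) for each of the 12 mitochondrially encoded genes tested, with 95% intervals as lines. The intervals of 10 genes cross 0; mt-Nd6 at 0.67 lies above 0 and mt-Co2 at -0.45 below, and neither passed the adjusted threshold.

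Shares within the mitochondrially encoded counts are free of the scaling to nuclear genes. mt-Nd6 took 0.00316, 0.00354, 0.00343 and 0.00540% of these counts in WT mice 1 to 4 and 0.00578, 0.00948, 0.00680 and 0.00576% in Ucp1Δ/Δ mice 1 to 4. Every Ucp1Δ/Δ mouse lay above every WT mouse, and mt-Nd6 was the only one of the 13 genes without overlap, beside 22.2% of all genes tested when their counts are divided in the same way, 17.7% of all being higher. When mt-Nd4 was left out of the sum, the shares of mt-Nd6 overlapped as well. Without WT mouse 4, 3 genes did not overlap, mt-Nd6 higher and mt-Co2 and mt-Cytb lower in Ucp1Δ/Δ, beside 30.3% of all genes tested when that mouse was left out.

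Ratios of counts were taken between genes in the same mouse. The ratios given here were chosen after their values were seen. Per mt-Nd1 count there were 2.38, 1.11, 2.43 and 3.28 counts of mt-Nd2 in WT mice 1 to 4 and 2.17, 2.52, 1.70 and 2.29 in Ucp1Δ/Δ mice 1 to 4. mt-Nd5 per mt-Nd1 was 0.232, 0.124, 0.250 and 0.335 in WT and 0.175, 0.275, 0.192 and 0.231 in Ucp1Δ/Δ. mt-Co1 per mt-Nd1 was 0.118, 0.0796, 0.125 and 0.174 in WT and 0.104, 0.150, 0.108 and 0.114 in Ucp1Δ/Δ. All 3 ratios were lowest in WT mouse 2 and highest in WT mouse 4, so the WT mice enclosed the Ucp1Δ/Δ mice. Between the highest and the lowest WT mouse, mt-Nd2 per mt-Nd1 varied 2.96 times, whereas mt-Nd5 per mt-Nd2, at 0.0978 to 0.112, varied 1.14 times. In Ucp1Δ/Δ mice these ratios varied alike, 1.48 and 1.41 times, with mt-Nd5 per mt-Nd2 at 0.0804 to 0.113.

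Of the 66 ratios between the 12 genes tested, 5 did not overlap between genotypes. The share of all genes tested without overlap was taken only for division by mt-Nd1 and by mt-Nd5, so the count of 5 has no background of its own. mt-Nd6 was in 3 of them (over mt-Co1, mt-Nd4 and mt-Nd5) and overlapped over the other denominators, and mt-Cytb was in 1, over mt-Nd1. mt-Cytb per mt-Nd1 was 2.11, 1.89, 2.03 and 2.35 in WT mice 1 to 4 and 1.66, 1.72, 1.85 and 1.67 in Ucp1Δ/Δ mice 1 to 4. Of the 11 other genes tested, 2 did not overlap when divided by mt-Nd1, mt-Cytb and mt-Co2, both lower, beside 21.3% of all genes tested. Per 1000 counts of mt-Nd5, its neighbour on the other strand, mt-Nd6 had 1.76, 3.26, 1.87 and 2.76 counts in WT and 3.72, 4.56, 4.50 and 3.29 in Ucp1Δ/Δ. The highest WT ratio lay just under the lowest Ucp1Δ/Δ ratio, and mt-Nd6 was the only one of 11 genes without overlap when divided by mt-Nd5, beside 15.3% of all genes tested. These ratios are descriptions of the same counts as the test above and were not tested on their own.

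**Figure D5:**
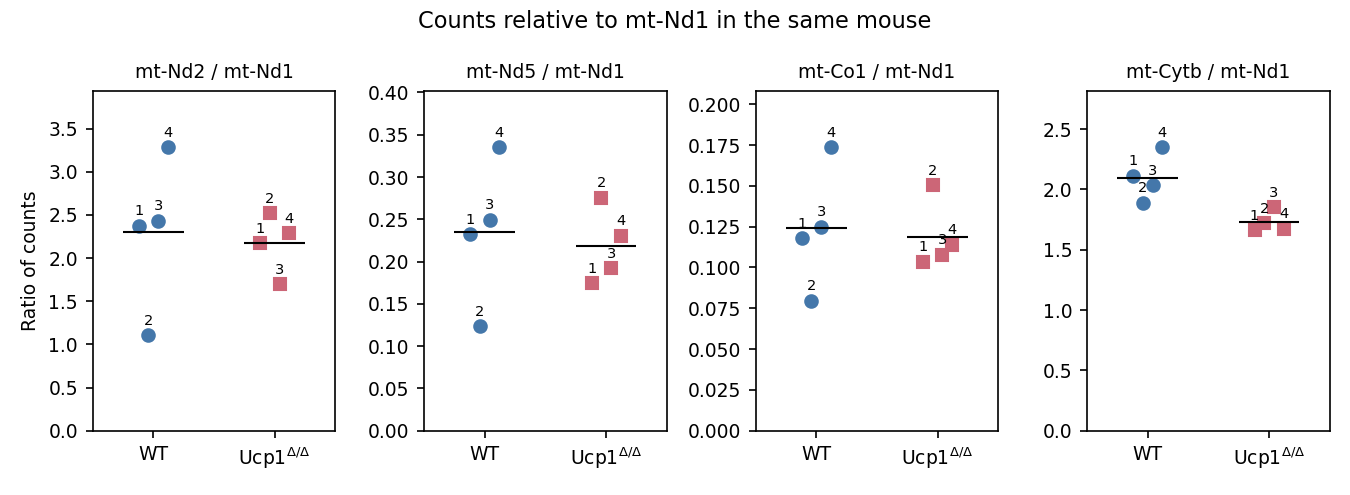
Counts of mt-Nd2, mt-Nd5, mt-Co1 and mt-Cytb divided by the counts of mt-Nd1 in the same mouse, with each mouse numbered and the genotype mean as a line. WT mouse 2 is lowest and WT mouse 4 highest for mt-Nd2, mt-Nd5 and mt-Co1, while for mt-Cytb the WT mice lie between 1.89 and 2.35 and the Ucp1Δ/Δ mice between 1.66 and 1.85.

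Few nuclear genes that maintain, express or regulate the mitochondrial genome were called by edgeR. With all 8 mice and the main filter on low counts, lower calls were no more frequent than over all genes tested. The 112 listed genes include 14 nuclear regulators, among them Ppara and Tfeb, which are not specific to that genome. Of the 112, 109 were matched and 88 tested. With edgeR 0 of these were called higher and 5 lower in Ucp1Δ/Δ, beside the 13.3 and 7.63% of all genes tested. DESeq2's Wald test called 0 higher and 4 lower, beside 10.1 and 6.2% of all genes, and limma voom 0 higher and 6 lower, beside 14.9 and 9.2%. At an unadjusted p under 0.05 edgeR gave 3 higher and 12 lower, beside 18.3 and 14.3% of all genes tested. The median log2FC of the 88 genes was -0.15, with 59 below 0 and 29 above, beside a median of -0.0087 over all genes tested, with 4529 below 0 and 4401 above. With edgeR 0 were called among the 12 tested genes of mtDNA replication and the nucleoid (3 lower at an unadjusted p under 0.05, 2 lower by limma voom, 0 by DESeq2) and among the 15 tRNA synthetases (2 higher at an unadjusted p under 0.05, 0 by both other tools). Among the 5 genes of transcription and the 15 translation factors, 0 had an unadjusted edgeR p under 0.05 and 0 were called by any of the 3 tools.

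The 5 genes called lower by edgeR were 3 of the 30 tested genes of RNA processing and stability and 2 of the 11 nuclear regulators tested. Over all genes tested 7.63% were called lower. In the list of RNA processing and stability, DESeq2's Wald test and limma voom each called 2 lower, beside 6.2 and 9.2% of all genes. At an unadjusted edgeR p under 0.05, 6 of that list were lower, beside 14.3% of all genes tested. Trit1, which modifies a base next to the anticodon of some tRNAs, was at 61.7 ± 4.83 CPM (SD, n = 4) in WT and 39.0 ± 3.13 CPM (SD, n = 4) in Ucp1Δ/Δ (log2FC -0.66, edgeR adjusted p = 0.00716), without overlap. Hsd17b10, a subunit of the enzyme that cuts the 5′ end of mitochondrial tRNAs and also an enzyme of isoleucine breakdown, was at 243 ± 64.2 CPM and 150 ± 17.8 CPM (SD, n = 4 each; log2FC -0.70, edgeR adjusted p = 0.0208). Its call was lost without Ucp1Δ/Δ mouse 2, 3 or 4, with log2FC of -0.62, -0.68 and -0.69. Supv3l1, the helicase of the mitochondrial RNA degradosome, was at 18.2 ± 2.56 CPM and 11.7 ± 1.41 CPM (SD, n = 4 each; log2FC -0.63, edgeR adjusted p = 0.0479), and passed in only 2 of 16 alternatives. Of the 11 nuclear regulators tested, Esrra, an orphan receptor that drives oxidative genes, had a log2FC of -1.38 (edgeR adjusted p = 0.00611). Ppara, a fatty acid-activated receptor that is also among the brown adipocyte markers used here, had one of -1.10 (edgeR adjusted p = 0.00476).

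The best-known regulators of mitochondrial transcripts were not called. Tfam, which packs mtDNA and starts its transcription, was at 17.8, 28.7, 31.7 and 30.9 CPM in WT mice 1 to 4 and 17.7, 19.9, 24.2 and 15.9 CPM in Ucp1Δ/Δ mice 1 to 4. WT mouse 1 lay among the Ucp1Δ/Δ mice, the log2FC was -0.50 (95% interval -0.97 to -0.02, edgeR adjusted p = 0.133), and without WT mouse 1 Tfam passed (edgeR adjusted p = 0.0476). Polrmt, the mitochondrial RNA polymerase, had a log2FC of 0.28 (95% interval -0.21 to 0.77, edgeR adjusted p = 0.441). Lrpprc, which stabilises heavy-strand mRNAs, had one of -0.23 (-0.71 to 0.25, edgeR adjusted p = 0.519), and Ppargc1a, a coactivator of mitochondrial biogenesis, one of 0.27 (-0.17 to 0.71, edgeR adjusted p = 0.407).

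RNA of macrophage and stromal progenitor markers was higher in Ucp1Δ/Δ, while the mitochondrially encoded share of total counts overlapped. All 12 macrophage markers were called higher in Ucp1Δ/Δ, and their summed level was 113 to 178 CPM in WT and 1282 to 2288 CPM in Ucp1Δ/Δ. Adgre1, which encodes a surface protein of macrophages, was at 0, 4.93, 2.004 and 1.52 CPM in WT and 16.3, 18.4, 11.3 and 15.5 CPM in Ucp1Δ/Δ (log2FC 2.80, edgeR adjusted p = 0.000364). Of 6 stromal progenitor markers 5 were called higher, with summed levels of 320 to 437 CPM in WT and 929 to 1681 CPM in Ucp1Δ/Δ, and 1 of 6 endothelial markers was called higher. Among 10 brown adipocyte markers 1 was called higher and 5 lower, and their summed level overlapped, at 7708 to 18269 CPM in WT and 6314 to 10195 CPM in Ucp1Δ/Δ. Beside these marker calls, edgeR called 13.3% of all genes tested higher and 7.63% lower. Ucp1 itself was at 2051, 4110, 3427 and 1291 CPM in WT and 2821, 1421, 1972 and 2394 CPM in Ucp1Δ/Δ (log2FC -0.34, edgeR adjusted p = 0.481).

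WT mice 2 and 4, which lay at opposite ends for several mitochondrial ratios, also lay at opposite ends of the brown adipocyte sum within WT, at 18269 CPM in mouse 2 and 7708 CPM in mouse 4. The 12 skeletal muscle markers summed to 1981, 130, 27.7 and 940 CPM in WT mice 1 to 4 and 462, 2762, 91.5 and 1227 CPM in Ucp1Δ/Δ mice 1 to 4. In each genotype the lowest muscle sum was in mouse 3, and the mitochondrially encoded share of those mice was 39.3% in WT and 40.0% in Ucp1Δ/Δ. The 5 erythroid markers summed to 3573 to 6989 CPM in WT and 2771 to 6772 CPM in Ucp1Δ/Δ. Of these lists 11 muscle and 5 erythroid markers were tested, and 0 were called by edgeR, DESeq2 or limma voom, with 0 at an unadjusted edgeR p under 0.05. No marker of any list was at 3 counts or fewer over all mice. The part of these marker differences in the mitochondrially encoded values was not tested.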

How the data were processed

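RNA of BAT from 8 mice was sequenced in bulk, with libraries prepared by a digital mRNA-seq service and sequenced from a single end for 75 cycles. Per the methods, the authors used bbduk for trimming, STAR for alignment to mm10 and HTseq-counts for gene counts, and the counts they deposited are raw. The labels' processing notes name other tools, Trimmomatic, HISAT2 and DESeq2. Annotation release, use of strand and treatment of reads with several matches are not given in the sources used here. The deposited log2 values and the gene attribute table were not used. Total counts were 2017697 to 3115956 per mouse, which limits the precision of genes with few counts.

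Samples were grouped by the genotype label and numbered by the titles. p-values weigh the genotype difference against the spread between these mice, which edgeR estimates in part across genes. Symbols came from GENCODE M21 (mm10) and matched 30934 of 31053 identifiers. No genome sequence was used, so nuclear matches are to annotated transcripts, searched exactly in 75-base windows on both strands. Printed sequences are from the GENCODE transcripts. Genes were filtered with filterByExpr (minimum count 10), scaled by TMM and compared with edgeR 4.0.16 (R 4.3.3) by the quasi-likelihood test with Benjamini-Hochberg adjustment at 0.05. Standard errors are the log2FC over the square root of F. Alternatives were other scalings and filters, DESeq2 1.42.0, limma 3.58.1 voom with quality weights, a replicate block and each mouse left out. The mitochondrially encoded genes as a topic, the lists and the markers were chosen with earlier results of these data known, although the rule for the former is their symbol. The text names Pnpla2, all genes of the mitochondrial genome in the table, up to 4 called genes per list and direction, Tfam, Polrmt, Lrpprc, Ppargc1a, Ucp1 and Adgre1. Prorp, Trmt61b and Mtrfr were not matched. The chi-square per degree of freedom between mice of the same genotype was 4.69 to 23.2, far above sampling noise, so no library was taken as a duplicate. On simulated data for 9083 tested genes, 99.0% of changed genes were recovered at a log2 change of 2, 66.7% at 1, and 3.09% of calls were unchanged genes. The simulation changed 200 genes, balanced between directions, with a spread set by expression level only, so these rates need not hold for the real data.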

Additional observations from a re-analysis of the deposited data

Results flagged for a closer look

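Of 70 groups of 4 mice examined for 1 mouse apart from the others, 3 were found, beside 3.5 that chance gives. A value of 1 would mean that the whole range of the group lies between 1 mouse and the other 3. The share of total counts taken by mitochondrially encoded genes was 45.6% in WT mouse 4 and 38.4 to 39.3% in the other WT mice (gap over range 0.871). Within the mitochondrially encoded counts, mt-Nd2 took 9.76% in WT mouse 2 and 17.8 to 19.2% in the other WT mice (0.856). mt-Co2 took 0.00618% in Ucp1Δ/Δ mouse 4 and 0.00748 to 0.00755% in the other Ucp1Δ/Δ mice (0.948), which rests on 59 counts in mouse 4.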

How the results depend on the processing

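The number of mitochondrially encoded genes called higher was 1 in place of 0, mt-Nd6, when libraries were scaled by total counts, nuclear counts or the mitochondrially encoded counts, with a filter of 1 count in any mouse or of 10 in every mouse, and with limma voom. The number called lower was 1 with the filter of 1 count (mt-Nd3) and with DESeq2's Wald test (mt-Cytb). Leaving out 1 mouse at a time gave 0 to 1 higher and 0 to 1 lower, where the 1 arose without WT mouse 4. Over all genes, 1191 were called higher and 681 lower. There were 746 higher and 449 lower with the filter of 10 counts, which tests fewer genes, 409 lower by total counts (1468 higher) and 415 lower by nuclear counts (1448 higher), and 945 to 1304 higher and 400 to 851 lower with 1 mouse left out. Of the listed nuclear genes, 2 were called higher by total counts and by nuclear counts (the regulator Tfeb and the tRNA synthetase Tars2), beside 16.4 and 16.2% of all genes tested. With the filter of 1 count, 8 of at most 109 matched genes were called lower, beside 5.31% of all genes tested, so lower calls were not rarer in the lists there. With 1 mouse left out, 0 were called higher and 3 to 9 lower. The 9 arose without WT mouse 4, where 9.19% of all genes tested were called lower. With 3 mice, Hsd17b10 was not called without Ucp1Δ/Δ mouse 2, 3 or 4 (log2FC -0.62, -0.68 and -0.69, edgeR adjusted p = 0.0738, 0.0526 and 0.0507).

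The difference in the mitochondrially encoded share was -3.98 points over TMM-scaled libraries, since TMM gave WT the smaller ones, and -0.918 to 1.49 points with 1 mouse left out. The number of genes whose share of the mitochondrially encoded counts did not overlap was 0 without mt-Nd4 in the sum and 1 to 3 with 1 mouse left out. Small log2FC values changed sign. Scaled by total, nuclear and mitochondrially encoded counts, and with the filter of 10 counts, they were 0.11, 0.11, 0.10 and 0.050 for mt-Nd1, 0.068, 0.047, 0.087 and 0.0035 for mt-Nd2, 0.071, 0.050, 0.091 and 0.0023 for mt-Co1, and 0.090, 0.097, 0.074 and 0.032 for mt-Atp6. For mt-Nd5 the first 3 gave 0.028, 0.0071 and 0.048, and mt-Nd1 was 0.0081 with limma voom. The median log2FC of all genes was 0.13, 0.12 and 0.13 under these 3 scalings and -0.0029 with the filter of 10 counts. With 1 mouse left out the log2FC ranged from -0.089 to 0.051 for mt-Nd1, -0.26 to 0.095 for mt-Nd2, -0.19 to 0.072 for mt-Co1, -0.18 to 0.098 for mt-Atp6, -0.17 to 0.36 for mt-Co3, -0.78 to -0.22 for mt-Nd3, -0.29 to 0.047 for mt-Nd5 and -0.37 to 0.058 for Lrpprc. Unless given above, the cause was not tested.

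With the replicate number as a block, 0 of the 12 mitochondrially encoded genes, 4 nuclear genes lower, and 1138 genes higher and 581 lower over all genes were called. The numbers were not treated as pairs, since deviations of same-numbered mice correlated at -0.0873, -0.196, 0.304 and 0.241 and not every mouse correlated best with its own number. The shares without rRNA and tRNA genes and with the nuclear copies added were not run, since those genes were not analysed here, and mt-Atp8 has no value with the filter of 10 counts. Genes of a few counts per mouse, mt-Nd4l and mt-Atp8, are limited by depth.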
